A study of Mus musculus with 48 samples.

Results

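Transcript levels of the cytochrome P450 families 1, 2 and 3 were measured in the liver of diet-induced obese (DIO) mice on Affymetrix arrays. The members were all genes whose symbol starts with Cyp1, Cyp2 or Cyp3 followed by a subfamily letter, pseudogenes excluded, and that had a probe set with that gene symbol alone. This gave 43 genes of the 18193 genes on the array, read by 52 of the 45037 probe sets, and a gene with more than 1 probe set was represented by the brightest of them. The subfamilies with more than 1 member were Cyp2c with 11 genes, Cyp2d with 8, Cyp2j and Cyp3a with 5 each, Cyp2b with 4 and Cyp1a with 2.

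All mice were male C57BL/6J, had been fed L-P/C-HF, a fat-rich diet with little protein relative to carbohydrate, over 10 wk, and had been selected for poor glucose tolerance, and all were housed singly; no lean group was among the arrays analysed here. They were then moved to H-P/C-HF (labelled HPHC), an equally fat-rich diet in which protein took the place of part of the carbohydrate, or stayed on L-P/C-HF (labelled HFHC). Livers were taken after 4-wk or 2-d, with 12 mice and 12 arrays in each of the 4 groups. Array B25 of the H-P/C-HF 2-d group was left out, which leaves 11 there. The 4-wk mice were also older at death, and they had been through a further overnight fast and glucose tolerance test, so duration cannot be told apart from these. All levels below are log2 values, in which a difference of 1 is a doubling of the signal.

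Enzymes of these families are haem proteins of the endoplasmic reticulum that oxidise drugs, toxins, steroids, bile acids and fatty acids with electrons from cytochrome P450 reductase (Por). Many of them are induced through ligand-sensing transcription factors: the Cyp1 genes through the aryl hydrocarbon receptor (AHR), and the Cyp2b, several Cyp2c and the Cyp3a genes through the constitutive androstane receptor (CAR, Nr1i3) and the pregnane X receptor (PXR, Nr1i2). In mouse liver several members also differ between the sexes, and Cyp2b9 and Cyp2b13 are known as genes of the female liver. Transcripts of many members are known to fall during an acute-phase response.

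The arrays were alike in overall level, with medians from 6.73 to 6.91. The liver label was checked on 7 measured hepatocyte markers, whose mean level lay between 12.56 and 13.31 in every mouse used. RNA quality moved with duration: the signal at the 3' end minus that at the 5' end of the Gapdh and beta-actin control probe sets was 0.27 ± 0.11 (SD, n = 12) in H-P/C-HF and 0.24 ± 0.07 (n = 12) in L-P/C-HF livers at 4-wk, against 0.48 ± 0.13 (n = 11) and 0.48 ± 0.19 (n = 12) at 2-d. Markers of other liver cells moved with duration too. The mean of 10 Kupffer cell markers had medians of 9.54 in H-P/C-HF and 9.99 in L-P/C-HF mice at 4-wk (ranges 8.44 to 10.01 and 9.17 to 10.60), against 8.64 and 8.75 at 2-d (8.33 to 9.21 and 8.32 to 9.49). By duration 8 of the 10 Kupffer cell markers passed as higher at 4-wk in H-P/C-HF and 10 in L-P/C-HF mice. So did 4 of 7 stellate cell markers on each diet and 5 and 4 of 5 sinusoidal endothelium markers. Of all genes, 6.04% and 6.01% passed, in either direction. Duration calls of members are given below also with RNA quality as a covariate, under which 1 of 43 members passed in H-P/C-HF mice, where 1.85% of all genes passed, and 0 in L-P/C-HF mice, where 1.48% passed. The part of these cells in the duration results was not tested, and in whole liver fewer cells of a type and less RNA per cell cannot be told apart. Between the mice of 1 group, 2 arrays stood apart in the members: A09 (L-P/C-HF 2-d, replicate 9) and B44 (H-P/C-HF 4-wk, replicate 8). Both are described below, and several results that rest on them are given with and without them.

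The first question was whether more protein at the expense of carbohydrate changed these enzymes. No member passed an adjusted p of 0.05 for diet at either duration by limma, in which p-values were adjusted over all probe sets. At 2-d this was 0 of 43 members, where 0.0165% of all genes passed, and at 4-wk it was 0 of 43, where 0% passed. At an unadjusted p under 0.05, 1 member was lower on H-P/C-HF at 2-d (1.62% of all genes were) and 2 were lower at 4-wk (2.16% of all genes). No member was higher at either duration by its brightest probe set, where 2.04% of all genes were at 2-d and 0.83% at 4-wk. The probe sets of Cyp1b1 disagreed at 2-d. The dimmest, at a mean level of 4.29, gave 0.19 (limma p = 0.00564), the brightest 0.11 (p = 0.248) and the remaining one 0.01 (p = 0.91). The median difference (level on H-P/C-HF minus that on L-P/C-HF) was 0.01 over the members at 2-d and 0.01 over all genes, and at 4-wk it was -0.04 over the members and -0.02 over all genes. The bounds were narrow for most genes. Some of these genes read below the array medians, such as Cyp3a16 at a mean level of 3.84 and Cyp3a44 at 4.54. Whether their signal exceeded background was not tested, so their narrow intervals bound the signal alone. The 95% interval of the diet effect lay within 0.5 on either side of 0 for 40 of 43 members at 2-d and for 41 at 4-wk, and it reached past 1 for Cyp2b9 at both durations and for Cyp1a1 at 4-wk. The difference between the diet effects at 4-wk and 2-d passed in no member (0 also at an unadjusted p under 0.05, where 1.49% of all genes passed).

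**Figure D1:**
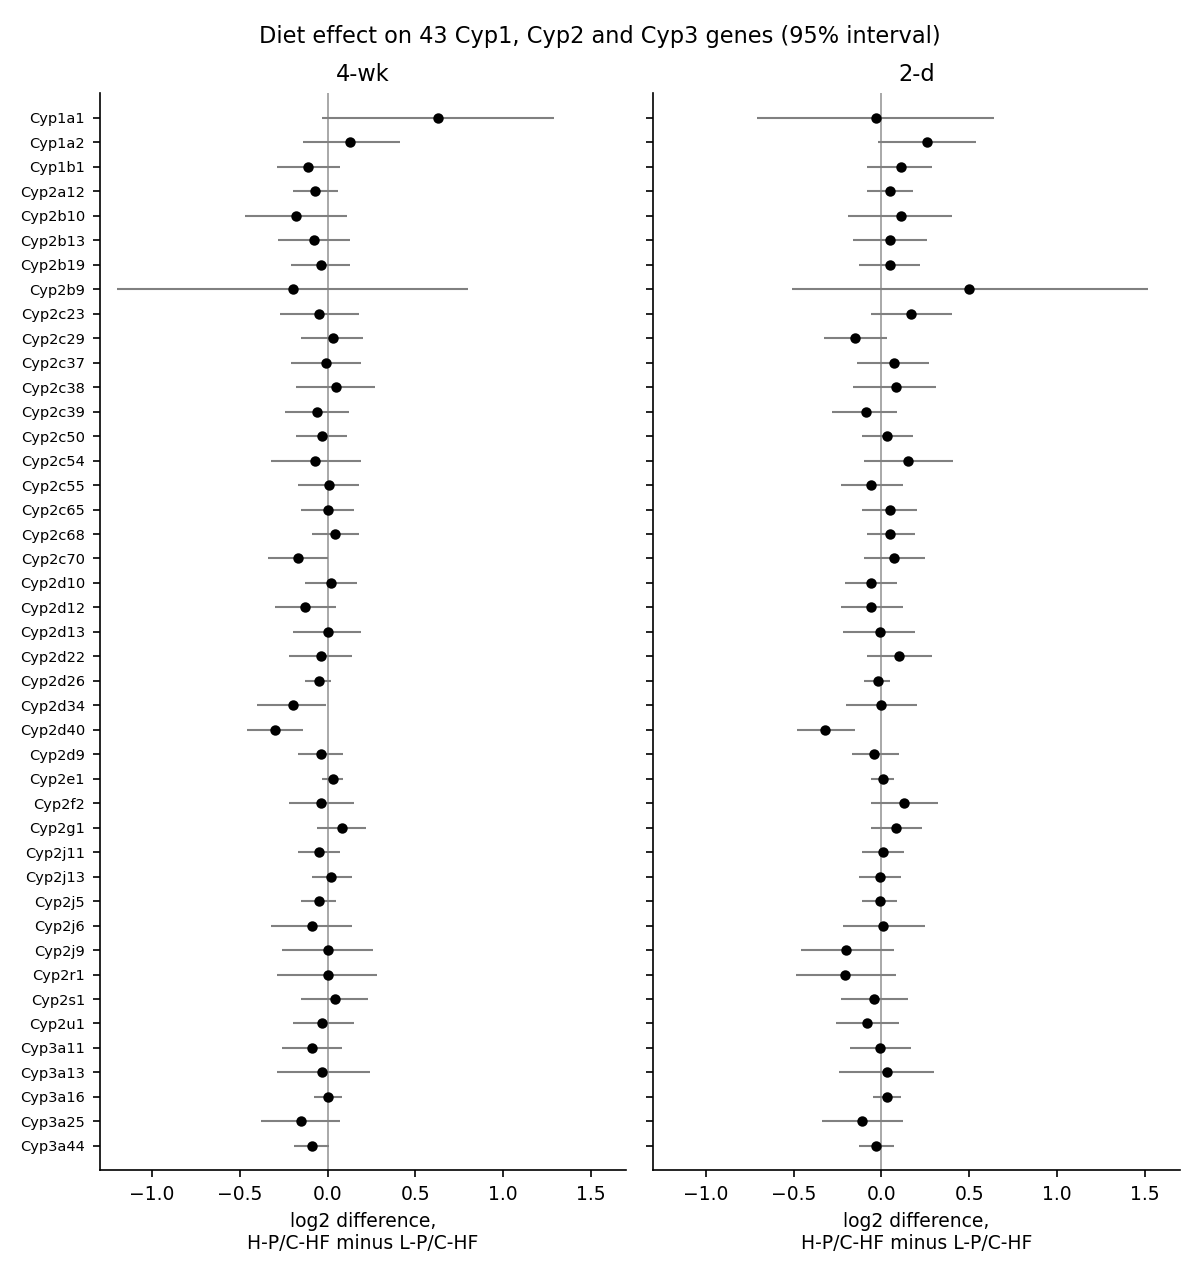
Difference in level between livers on H-P/C-HF and those on L-P/C-HF (log2, x axis) for each of the 43 genes at 4-wk (left) and 2-d (right), with points for the limma estimate and lines for its 95% interval. Most genes lie close to 0, Cyp2d40 lies below 0 at both durations, and the lines of Cyp2b9 and of Cyp1a1 are the long ones.

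The member with the smallest p at both durations was Cyp2d40, a gene of the Cyp2d cluster on chromosome 15 (GRCm38.p6, 82759833 to 82764122). At 4-wk its lowest, median and highest levels were 7.95, 8.25 and 8.44 in H-P/C-HF mice, against 8.31, 8.46 and 8.94 in L-P/C-HF mice. At 2-d they were 8.05, 8.27 and 8.80 in H-P/C-HF mice, against 8.24, 8.66 and 9.03 in L-P/C-HF mice. The ranges overlapped, but all 12 H-P/C-HF mice at 4-wk and 10 of 11 at 2-d lay below the median of the L-P/C-HF mice of that duration.

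The diet effect on Cyp2d40 was -0.30 (SE 0.08, p = 5.28e-04, limma adjusted p = 0.999) at 4-wk and -0.32 (SE 0.08, p = 3.26e-04, limma adjusted p = 0.399) at 2-d. Neither passed on its own over all probe sets. The mean of the 2 diet effects, a contrast added after these values had been seen, was -0.31 (SE 0.06, a fold of 0.81) with a limma adjusted p of 0.0117, and Cyp2d40 was then the only member past the threshold, where 0.077% of all genes passed. The 2 effects come from separate mice and differed by 0.02 (SE 0.12, p = 0.867). The left-out array B25, also from an H-P/C-HF mouse, read 8.09, which adds no separate support. In other members too it lay outside the H-P/C-HF 2-d mice used. It was below them in Cyp2d26 (13.07 against 13.14 to 13.48) and above them in Cyp2j13 (6.18 against 5.62 to 6.01), for example. The pooled diet effects of the other 7 Cyp2d genes ran from -0.10 to 0.03. Cyp2d34 read 6.78 ± 0.19 in H-P/C-HF livers and 6.98 ± 0.27 in L-P/C-HF livers at 4-wk (SD, n = 12 each), a difference of -0.20 (p = 0.0413, limma adjusted p = 0.999), and 7.03 ± 0.29 (n = 11) against 7.03 ± 0.22 (n = 12) at 2-d. Since the pooled contrast was chosen from these same values, passing it is no independent test of a diet effect. The 250 bases before the start of Cyp2d40 (GRCm38.p6, chr15:82764123-82764372, minus strand, from RefSeq) are shown because only this member passed in that contrast. The capitals mark the letters of a TATA box (TATAAA), here on the opposite strand.
Cyp2d40: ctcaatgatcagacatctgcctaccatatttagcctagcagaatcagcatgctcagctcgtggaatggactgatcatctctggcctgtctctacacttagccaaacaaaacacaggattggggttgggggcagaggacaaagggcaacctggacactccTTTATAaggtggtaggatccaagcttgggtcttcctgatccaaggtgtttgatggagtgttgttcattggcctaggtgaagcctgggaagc

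**Figure D2:**
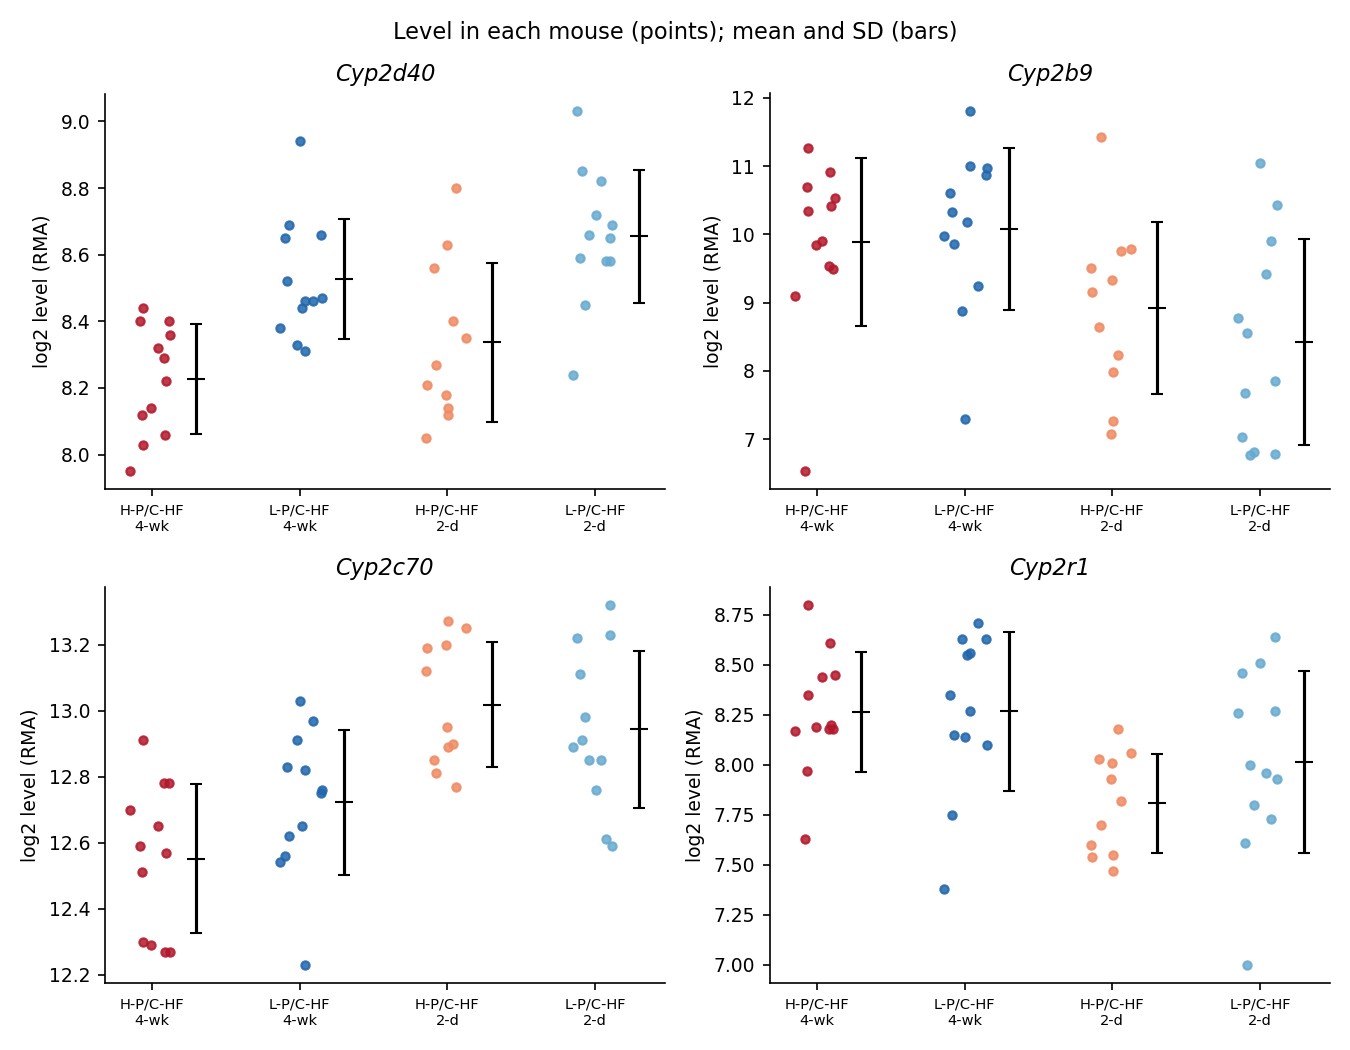
Level of Cyp2d40, Cyp2b9, Cyp2c70 and Cyp2r1 in each mouse (log2, y axis) by group, with a point for each mouse and bars for the mean and SD. Cyp2d40 is lower in the H-P/C-HF groups, Cyp2b9 spans more than 4 units within groups, Cyp2c70 is lower at 4-wk and Cyp2r1 is higher at 4-wk, most clearly in H-P/C-HF mice.

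The AHR-driven members are Cyp1a1 and Cyp1b1, which are low in an unexposed liver and oxidise polycyclic aromatic compounds, and Cyp1a2, which is made in the hepatocytes around the central vein at all times. Their promoters are shown because 1 mouse differed from all others in both Cyp1a genes. The genes lie side by side on chromosome 9 and are read in opposite directions. The stretches are the 250 bases before each start in RefSeq (GRCm38.p6; Cyp1a1 chr9:57697363-57697612, plus strand, inside the annotated span of the gene; Cyp1a2 chr9:57683656-57683905, minus strand). The capitals mark the AHR core GCGTG, found in Cyp1a1 from base -54 to -50, and the TATA box TATAAA.
Cyp1a1: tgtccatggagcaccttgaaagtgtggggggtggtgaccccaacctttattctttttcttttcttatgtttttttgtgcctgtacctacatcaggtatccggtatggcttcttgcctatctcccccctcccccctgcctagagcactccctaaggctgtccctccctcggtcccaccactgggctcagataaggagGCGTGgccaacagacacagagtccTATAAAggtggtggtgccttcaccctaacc
Cyp1a2: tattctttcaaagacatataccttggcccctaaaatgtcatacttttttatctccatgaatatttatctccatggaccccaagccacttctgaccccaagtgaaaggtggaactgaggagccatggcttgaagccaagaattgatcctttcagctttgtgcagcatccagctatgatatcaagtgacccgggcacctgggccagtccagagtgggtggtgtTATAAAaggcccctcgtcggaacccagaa

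Cyp1a1 read 7.43, 7.60 and 13.42 (lowest, median and highest) in H-P/C-HF mice at 4-wk, against 7.27, 7.50 and 7.64 in L-P/C-HF mice. At 2-d it read 7.23, 7.44 and 7.65 in H-P/C-HF mice, against 7.32, 7.47 and 7.70 in L-P/C-HF mice. The value of 13.42 was that of 1 mouse, array B44, whereas the other 11 mice of its group lay between 7.43 and 8.03 and all other 46 mice between 7.23 and 8.03. B44 was 5.82 above the median of the others of its group, or 56.5-fold, the largest such difference among all 18193 genes in that mouse. Cyp1a2 was also highest there, at 14.18 against 12.52 to 13.23 in the other 11, a difference of 1.37 (2.58-fold) from their median, which ranked 4 among all genes. Rank 2 was Slc46a3, a lysosomal transporter gene noticed only after its value was seen, at 10.99 against 9.08 to 9.67 in the other 11.

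In B44 the other AHR genes that were listed and measured lay within the range of its group. AHR targets outside that list were not searched for, and whether Slc46a3 is one was not examined. Cyp1b1 was 7.09, against 6.39 to 7.29 in the others of its group. Of the other listed AHR targets, 4 of 7 were measured, and all lay within the range of the other 11 mice in B44: Nqo1 at 6.66, Tiparp at 8.35, Ahrr at 5.34 and Aldh3a1 at 4.30. Of these, Nqo1, Ahrr and Aldh3a1 read below the median of this array. CAR itself (Nr1i3) read 11.32 in B44, just above the 10.41 to 11.19 of the others. Nr0b2, another listed regulator, read 8.72, below the 8.99 to 10.23 of the others. RNA quality and overall level of this array were ordinary for its group (0.18 and a median of 6.77).

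The diet effect on Cyp1a1 at 4-wk was 0.63 (SE 0.33, p = 0.0599, limma adjusted p = 0.999) with all mice and 0.15 (p = 0.0195, adjusted p = 1) without it. On Cyp1a2 at 4-wk it was 0.13 with all mice and 0.02 without B44. At 2-d Cyp1a2 read 13.17, 13.26 and 13.46 in H-P/C-HF mice, against 11.73, 13.06 and 13.62 in L-P/C-HF mice, and 11 of 11 mice on H-P/C-HF exceeded the median of those on L-P/C-HF. That difference was 0.26 (SE 0.14, p = 0.067, limma adjusted p = 1), and it was 0.14 (p = 0.229) without A09, the mouse at 11.73.

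With duration, the difference in Cyp1a2, 4-wk minus 2-d, was -0.36 in H-P/C-HF mice (limma adjusted p = 0.122) and -0.23 in L-P/C-HF mice (adjusted p = 0.407). Their calls turned on the single mice. Without B44 the difference in H-P/C-HF mice was -0.47 (adjusted p = 0.00944), and without A09 it was -0.36 (adjusted p = 0.0426) in H-P/C-HF and -0.35 (adjusted p = 0.0491) in L-P/C-HF mice. Across mice, the deviations of Cyp1a1 and Cyp1a2 from the group means had a Pearson r of 0.53 (permutation p = 0.072) and a Spearman rho of 0.12 over 47 mice. Without B44 r was 0.06, so the relation rested on that mouse.

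**Figure D3:**
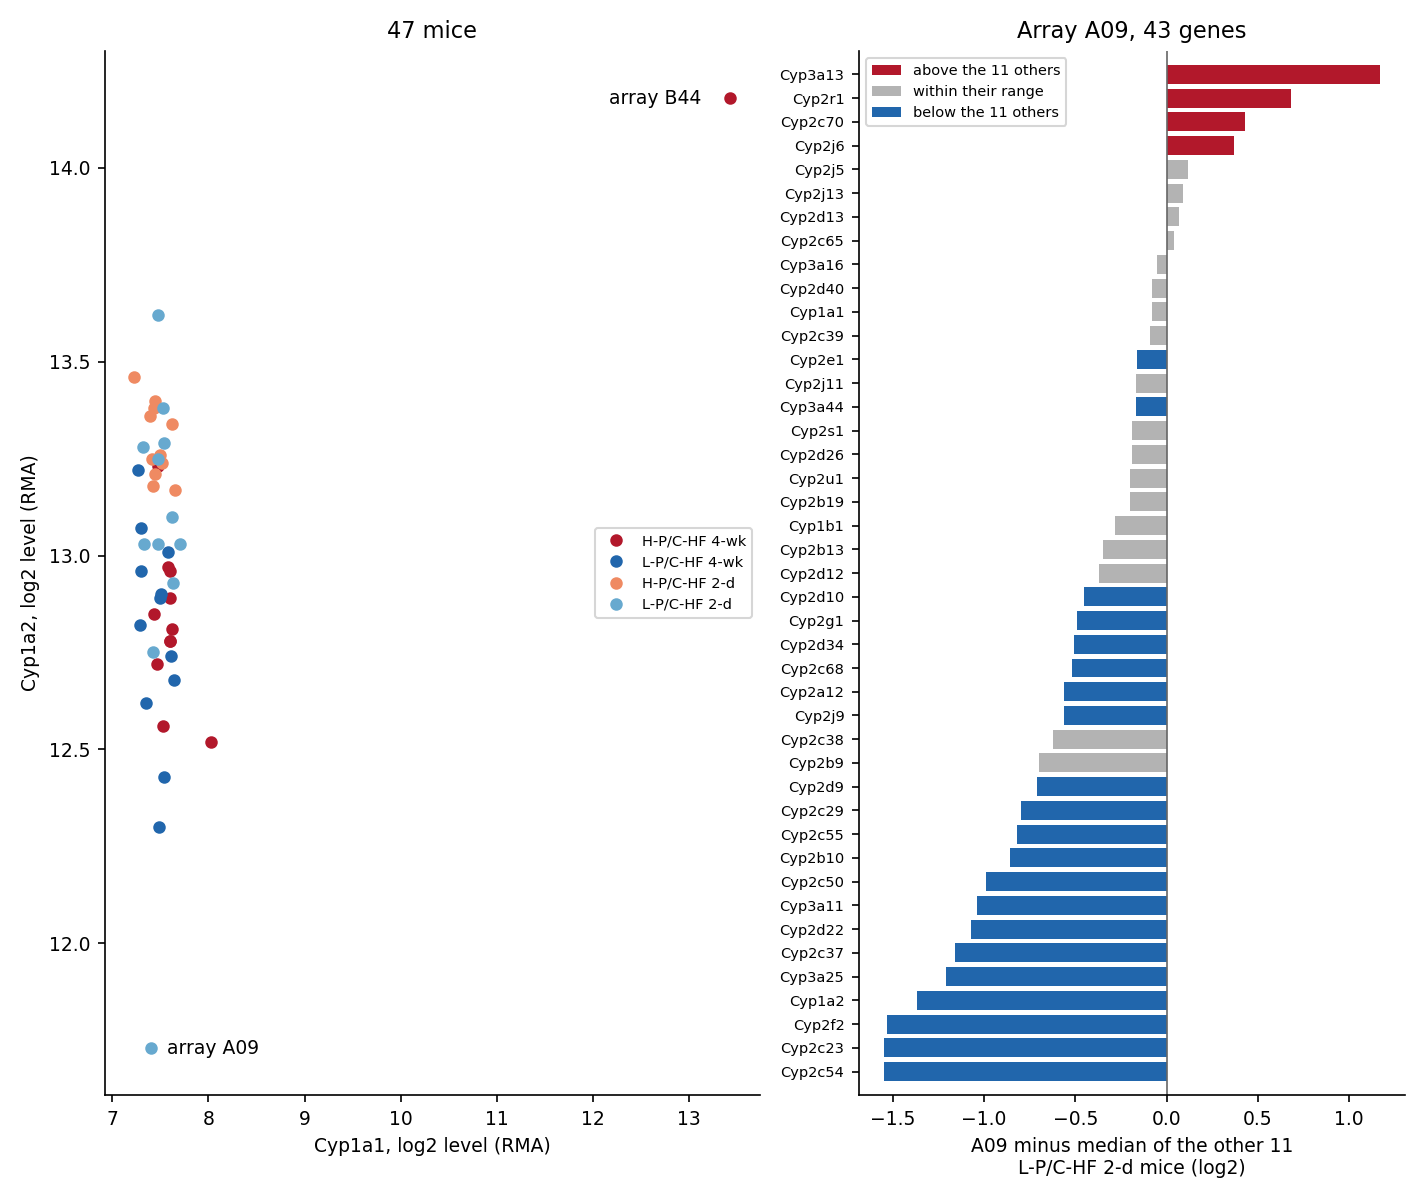
Left, Cyp1a2 against Cyp1a1 (log2 levels) in the 47 mice, coloured by group, in which array B44 stands alone at the top right and array A09 at the bottom. Right, level in array A09 minus the median of the other 11 L-P/C-HF 2-d mice (log2, x axis) for the 43 genes, coloured by whether A09 lies above, within or below the range of those mice; 21 genes lie below it and 4 above.

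A09 was the mouse in which these families were low. In 21 of 43 members it lay below all other 11 mice of the L-P/C-HF 2-d group, and in 4 above them, where 18.4% of all genes lay below and 13.7% above. In 19 members it had the lowest level of all 47 mice, and no other mouse had more than 3. The share of all genes that were lowest in A09 was not worked out. In 8 members A09 lay more than 1 below the median of its group, where 0.693% of all genes did. In 1 member it lay more than 1 above, where 1.54% of all genes did. Cyp2c54, an epoxygenase of arachidonic acid, was 11.19 in A09 against 12.24 to 12.91 in the others of its group. Cyp2c23, another arachidonic acid enzyme, was 11.08 against 11.82 to 12.79. Cyp2f2, which in mouse oxidises naphthalene, was 12.12 against 13.49 to 13.75.

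The fall was not shared by all members. Cyp3a11, the main PXR-induced enzyme, was 12.21 in A09 against 13.12 to 13.46, whereas Cyp3a13 was 12.29 against 10.48 to 12.03. Cyp2e1, which oxidises ethanol, was 13.92 against 13.93 to 14.14. The members above the range were Cyp3a13, Cyp2r1, Cyp2c70 and Cyp2j6. The probe set that reads Cyp2a5 and Cyp2a4 together, and so is no member, was 9.03 against 12.14 to 13.13, and its diet effect at 2-d was 0.48 (p = 0.0441, limma adjusted p = 1) with A09 and 0.17 (p = 0.0914) without it.

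The genes most raised in A09 of all were acute-phase genes, noticed only after their values were seen. A2m, a protease inhibitor of the plasma, was 12.70 in A09 against 5.40 to 6.77 in the other 11 mice, and serum amyloid Saa2 was 14.81 against 7.98 to 12.52. The lipid carrier Fabp4, listed as an adipocyte marker, was 10.56 against 6.06 to 7.37. Of 4 listed adipocyte markers 2 were measured, and the other, Adipoq, lay within the range of the others at 4.74. The source of the Fabp4 signal was not tested. Among the regulators, Hnf4a was 12.29 against 12.44 to 12.92 and Onecut1 was 8.28 against 8.45 to 10.66. Ahr was above the range, at 10.51 against 9.14 to 10.47, and 10 of the 13 measured regulators lay within it. Low levels in A09 extended beyond these families. Of 7 hepatocyte markers 6 lay below the other mice, such as Cps1, an enzyme of the urea cycle, at 12.61 against 13.46 to 13.71 and albumin (Alb) at 14.38 against 14.55 to 14.61. Of 17 measured CAR and PXR targets outside the families 10 lay below and 1 above, with the glutathione transferase Gsta2 at 5.91 against 7.03 to 9.12, Gstt3 at 7.99 against 8.94 to 9.94 and the epoxide hydrolase Ephx1 at 10.86 against 11.75 to 12.65. The part of an acute-phase state in the low Cyp levels of this mouse was not tested.

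The CAR and PXR targets formed the largest functional group, with 17 of 19 listed genes measured. At 2-d 11 of them were higher and 6 lower on H-P/C-HF, and at 4-wk 5 were higher and 12 lower, with medians of 0.03 and -0.03, against 0.01 and -0.02 over all genes. At either duration none passed an adjusted or an unadjusted p of 0.05 for diet. The same held for 6 measured members known as higher in female liver (4 of 6 positive at 2-d and 0 of 6 at 4-wk), for 7 members known from the hepatocytes around the central vein (5 and 3 positive) and for 9 arachidonic acid epoxygenases (5 and 3 positive). In the pooled diet effect Cyp1a2, listed as a CAR and PXR target and as a gene of the central vein, had 0.20 (p = 0.0479, limma adjusted p = 1). This was with all mice. The diet effect on Cyp1a2 was smaller at 2-d without A09 and at 4-wk without B44, as given above. With duration, the female-liver list held the call for Cyp2b9 in L-P/C-HF mice described below, and none of the other members on these 4 lists passed. Of their receptors, CAR (Nr1i3) was 10.86 ± 0.27 in H-P/C-HF and 10.90 ± 0.21 in L-P/C-HF mice at 4-wk (SD, n = 12 each), and 10.69 ± 0.29 (n = 11) and 10.61 ± 0.32 (n = 12) at 2-d. PXR (Nr1i2) differed by -0.22 at 4-wk (p = 0.0333, limma adjusted p = 0.999).

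Within that group are the Cyp2b genes, which oxidise steroids and many drugs, and among them Cyp2b9 had the largest SD between mice of all 43 members, 1.31. Stretches before the starts of 3 of them in the cluster on chromosome 7 (RefSeq, GRCm38.p6, plus strand) are shown because their levels moved together across mice: Cyp2b9 at chr7:26173159-26173301, Cyp2b13 at chr7:26061245-26061387 and Cyp2b10 at chr7:25897408-25897657. The capitals mark the nuclear receptor half-site AGGTCA in Cyp2b9 and Cyp2b13, and the AHR core GCGTG on either strand in Cyp2b10.
Cyp2b9: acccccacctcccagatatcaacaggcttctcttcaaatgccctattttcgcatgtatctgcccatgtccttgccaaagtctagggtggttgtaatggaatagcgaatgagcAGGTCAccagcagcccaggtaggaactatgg
Cyp2b13: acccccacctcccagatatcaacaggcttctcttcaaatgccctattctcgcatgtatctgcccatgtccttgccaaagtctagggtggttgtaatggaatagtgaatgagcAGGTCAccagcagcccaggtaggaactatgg
Cyp2b10: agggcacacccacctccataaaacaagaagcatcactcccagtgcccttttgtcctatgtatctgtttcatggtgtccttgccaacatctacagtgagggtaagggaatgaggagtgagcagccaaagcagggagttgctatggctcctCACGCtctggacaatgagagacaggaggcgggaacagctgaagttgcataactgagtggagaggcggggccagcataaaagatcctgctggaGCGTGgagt
Over the 250-base windows before their promoter starts Cyp2b9 and Cyp2b13 differed at 2 bases, T48C and C104T. Cyp2b9's base is given first, and positions are counted from 1 at the 5' end of the stretches shown. In both genes these windows run past the annotated gene start (26173350 for Cyp2b9 and 26061388 for Cyp2b13). The stretches shown for these 2 genes are therefore only the first 143 bases, which lie before it. Cyp2b9 and Cyp2b10 were 75 edits apart over their 250 bases. Whether the probe sets of Cyp2b9 and Cyp2b13 tell the 2 transcripts apart was not tested here.

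Cyp2b9 read 6.53, 10.12 and 11.27 (lowest, median and highest) in H-P/C-HF mice at 4-wk, against 7.07, 9.16 and 11.43 at 2-d. In L-P/C-HF mice it read 7.29, 10.25 and 11.80 at 4-wk, against 6.77, 8.20 and 11.05 at 2-d. Every group held both low and high mice, and all ranges overlapped. The diet effect was -0.20 (95% interval -1.20 to 0.80) at 4-wk and 0.50 (-0.51 to 1.52) at 2-d, and both intervals were wide because of this spread.

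For Cyp2b9, duration gave the larger values. In L-P/C-HF mice it was higher at 4-wk than at 2-d by 1.66 (SE 0.50, 3.17-fold, limma adjusted p = 0.0283), and 11 of 12 mice at 4-wk lay above the 2-d median. It was the only 1 of 43 members past the threshold there, where 6.01% of all genes passed, and at an unadjusted p under 0.05 it was 7 members against 15.8% of all genes. In H-P/C-HF mice the difference was 0.96 (SE 0.51, 1.94-fold, limma adjusted p = 0.308), with 10 of 12 mice above the 2-d median, and the 2 differences did not differ past the threshold (-0.70, SE 0.71, p = 0.325). With the RNA quality value of each array as a covariate, the difference in L-P/C-HF mice was 0.90 (limma adjusted p = 0.834). The call was also lost without A01, A09 and A24 (1.63, limma adjusted p = 0.0659) and in an ordinary one-way ANOVA (adjusted p = 0.105).

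The other Cyp2b genes varied less between mice. Cyp2b10, the classical CAR target, read 7.12, 7.67 and 8.73 in L-P/C-HF mice at 4-wk, against 6.53, 7.39 and 8.0 at 2-d, a difference of 0.37 (SE 0.14, p = 0.0133, limma adjusted p = 0.124). In H-P/C-HF mice it read 6.93, 7.51 and 8.32 at 4-wk, against 7.03, 7.39 and 8.25 at 2-d, and all 4 ranges overlapped. Its diet effect was -0.18 at 4-wk and 0.11 at 2-d, and its 2 dimmer probe sets gave -0.05 and 0.04 at 4-wk and 0.30 and 0.35 at 2-d. Cyp2b13 differed by 0.19 with duration in L-P/C-HF mice (p = 0.0721), and Cyp2b19, a gene of the skin, had an SD between mice of 0.22.

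The low and the high Cyp2b mice were partly the same. For 9 pairs of genes chosen by role, the deviations of each mouse from its group mean were correlated over 47 mice, with permutation within groups and p-values adjusted over the 9 pairs. Cyp2b9 and Cyp2b10 had r = 0.59 and rho = 0.64 (permutation p = 2e-05 for r, adjusted 9e-05), with r from 0.47 to 0.81 in the 4 groups. Leaving out the 2 mice farthest in Cyp2b9 (A15 and B40) gave r = 0.54. Cyp2b9 and Cyp2b13 had r = 0.55 and rho = 0.58 (permutation p = 3e-04 for r, adjusted 1e-03), and r = 0.60 without those 2 mice, with r from 0.27 in the H-P/C-HF 4-wk group to 0.72 in the L-P/C-HF 4-wk group.

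Cyp2b10 moved with a CAR target outside the family. With Gstt3, a glutathione transferase, it had r = 0.66 and rho = 0.62 (permutation p = 1e-05, the smallest the resamples can give, adjusted 9e-05), with r from 0.58 to 0.72 in the 4 groups and r = 0.61 without A09. With Cyp3a11 it had r = 0.49 and rho = 0.36 (adjusted permutation p = 0.0011 for r and 0.033 for rho), and r = 0.38 without A09. The pairs of Cyp2b9 with Cyp3a44 (r = 0.29) and of Cyp2b10 with Cyp2c29 (r = 0.30) did not pass, both with an adjusted permutation p of 0.088, nor did Cyp2e1 with Cyp2f2 (r = 0.20) or with Cyp1a2 (r = 0.19), both with an adjusted p of 0.28. Without A09, r was 0.15 for Cyp2b10 with Cyp2c29, -0.25 for Cyp2e1 with Cyp2f2 and 0.00 for Cyp2e1 with Cyp1a2. Genes read on the same array share its quality and scaling.

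**Figure D4:**
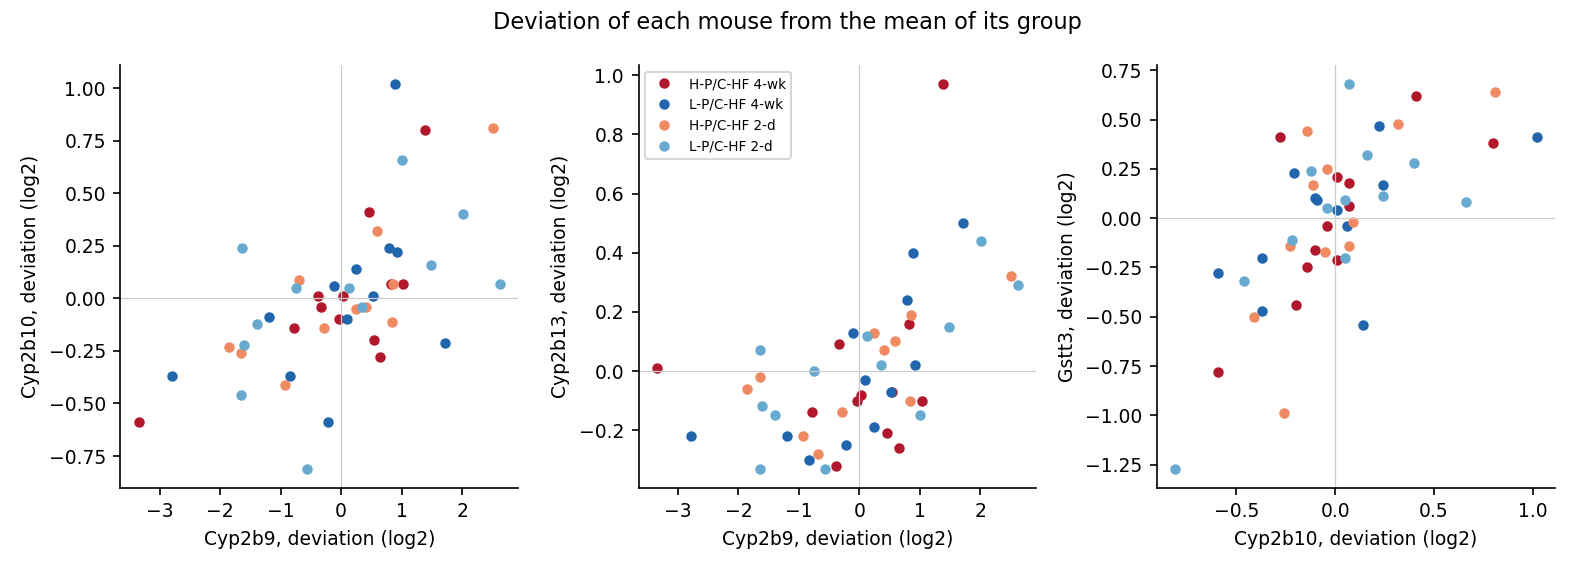
Deviation of each mouse from the mean of its group (log2) for Cyp2b10 against Cyp2b9, Cyp2b13 against Cyp2b9 and Gstt3 against Cyp2b10, with 1 point for each of the 47 mice, coloured by group. All 3 panels slope upward, with r of 0.59, 0.55 and 0.66.

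Of the other listed CAR and PXR targets, which conjugate, export or hydrolyse drugs, 17 of 20 were measured. None passed an adjusted p of 0.05 for diet. At an unadjusted p under 0.05, 3 were higher and 1 lower on H-P/C-HF at 4-wk, and 4 were higher and 1 lower at 2-d. Of all genes, 0.83% were higher and 2.16% lower at 4-wk, and 2.04% and 1.62% at 2-d. Gsta2 was among the higher at both durations, at 9.66 ± 0.76 on H-P/C-HF against 8.97 ± 0.72 on L-P/C-HF at 4-wk (SD, n = 12 each), a difference of 0.69 (p = 0.0303, limma adjusted p = 0.999), and at 2-d the difference was 0.78 (p = 0.0173, adjusted p = 1), where A09 was the lowest mouse. With duration 5 were higher and 1 lower at 4-wk in H-P/C-HF mice, and 4 were higher in L-P/C-HF mice, with medians of 0.22 and 0.19 against -0.02 and 0.01 over all genes. The shares of all genes that passed were 6.04% and 6.01%, in either direction. Gstm1, Gstm2 and the exporter Abcc4 rose on both diets, with Gstm2 higher at 4-wk by 0.72 in H-P/C-HF mice (limma adjusted p = 2.39e-04) and 0.44 in L-P/C-HF mice (adjusted p = 0.0298). Gstt3 rose by 0.57 in L-P/C-HF mice (adjusted p = 0.0199) and differed by 0.34 in H-P/C-HF mice (adjusted p = 0.262). At 2-d Gstt3 was 9.74 ± 0.47 in H-P/C-HF livers and 9.26 ± 0.48 in L-P/C-HF livers (SD, n = 11 and 12), a difference of 0.49 (p = 0.00496, limma adjusted p = 1). There too A09 was the lowest mouse, and no value without it is given for Gsta2 or Gstt3 at 2-d.

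Several regulators of liver enzymes fell with duration. Hnf4a, which maintains many Cyp genes, differed by -0.30 in H-P/C-HF and -0.29 in L-P/C-HF mice, 4-wk minus 2-d (limma adjusted p = 5.65e-04 and 6.80e-04). PXR (Nr1i2) differed by -0.34 in H-P/C-HF mice (adjusted p = 0.0295) and differed by -0.05 in L-P/C-HF mice (adjusted p = 0.877). In all, 2 of 13 measured regulators fell in mice on H-P/C-HF and 3 in mice on L-P/C-HF, where the others were Onecut1 (-1.28, adjusted p = 0.0013) and Cebpb (-0.36, adjusted p = 0.0285). Of all genes, 6.04% passed for duration on H-P/C-HF and 6.01% on L-P/C-HF, in either direction. No regulator passed for diet. At an unadjusted p under 0.05, 2 of the 13 were lower on H-P/C-HF at 4-wk, where 2.16% of all genes were. These were PXR, given above, and Nr0b2 (-0.43, p = 0.0025, limma adjusted p = 0.999). Of the 6 measured genes of electron supply and haem, cytochrome b5 type B (Cyb5b) and haem oxygenase (Hmox1) rose on both diets, and Hmox1 was higher by 0.58 in H-P/C-HF and 0.63 in L-P/C-HF mice (adjusted p = 0.00484 and 0.00146). The 4 others, Cyb5a, Cyb5r3, Pgrmc1 and Alas1, did not pass. With RNA quality as a covariate, 5 of the 10 duration calls of these genes outside the families in H-P/C-HF mice still passed (Cyb5b, Ephx1, Fmo5, Gstm2 and Gstm3) and 0 of the 9 in L-P/C-HF mice, all with the same sign as before. Hnf4a was then -0.21 (limma adjusted p = 0.0958) and -0.18 (adjusted p = 0.299), and Onecut1 in L-P/C-HF mice -0.85 (adjusted p = 0.328).

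In H-P/C-HF mice, 2 of 43 members passed for duration, where 6.04% of all genes passed, and at an unadjusted p under 0.05 it was 11 members against 17.5% of all genes. Cyp2c70, which in mouse makes muricholic bile acids, was the clearer. It read 12.27, 12.58 and 12.91 at 4-wk, against 12.77, 12.95 and 13.27 at 2-d, and all 12 mice at 4-wk lay below the 2-d median. The difference was -0.47 (SE 0.09, a fold of 0.72, limma adjusted p = 3.52e-04), and it kept an adjusted p under the threshold in all 15 alternatives, among them the RNA quality covariate (-0.47, adjusted p = 0.00661). In L-P/C-HF mice Cyp2c70 read 12.23, 12.75 and 13.03 at 4-wk, against 12.59, 12.90 and 13.32 at 2-d, a difference of -0.22 (p = 0.0139, adjusted p = 0.128), and the 2 differences differed by -0.25 (SE 0.12, p = 0.0528, adjusted p = 1). The 250 bases before the start of Cyp2c70 in RefSeq (GRCm38.p6, chr19:40187287-40187536, minus strand) are shown as those of the clearest duration result, with the half-site AGGTCA and the TATA box, on the opposite strand, in capitals.
Cyp2c70: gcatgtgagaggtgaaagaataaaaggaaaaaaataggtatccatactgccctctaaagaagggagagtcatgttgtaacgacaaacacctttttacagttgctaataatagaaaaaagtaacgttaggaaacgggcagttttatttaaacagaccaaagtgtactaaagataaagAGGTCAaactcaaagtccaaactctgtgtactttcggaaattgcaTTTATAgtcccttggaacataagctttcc

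Cyp2r1, the main vitamin D 25-hydroxylase, was the other. It read 7.63, 8.20 and 8.80 in H-P/C-HF mice at 4-wk, against 7.47, 7.82 and 8.18 at 2-d, and 11 of 12 mice lay above the 2-d median. The difference was 0.46 (SE 0.14, 1.37-fold, limma adjusted p = 0.0421), and it was 0.46 with an adjusted p of 0.0523 without B44 and 0.24 (adjusted p = 0.709) with RNA quality as a covariate. In L-P/C-HF mice it differed by 0.25 (adjusted p = 0.365).

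Without A09, whose spread enters the shared error, 6 members passed for duration in H-P/C-HF mice, where 6.76% of all genes then passed. Besides Cyp2c70 and Cyp2r1 these were Cyp2c29, an epoxygenase and CAR target, higher by 0.25 (limma adjusted p = 0.0327), and Cyp1a2, Cyp2a12 and Cyp2c54, lower. Cyp2a12 differed by -0.18 (adjusted p = 0.0367) and Cyp2c54 by -0.32 (adjusted p = 0.0312). In L-P/C-HF mice 2 passed without A09, Cyp2b9 and Cyp1a2, where 6.12% of all genes passed. With all mice and RNA quality as a covariate, none of the 4 added genes passed in H-P/C-HF mice: Cyp1a2 was -0.23 (limma adjusted p = 0.742), Cyp2a12 -0.17 (adjusted p = 0.417), Cyp2c54 -0.15 (adjusted p = 0.856) and Cyp2c29 0.32 (adjusted p = 0.128). With all mice Cyp2c29 read 12.47, 12.70 and 13.10 in H-P/C-HF mice at 4-wk, against 12.19, 12.54 and 12.71 at 2-d (0.25, adjusted p = 0.0818).

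Duration values ran in both directions within the Cyp2c genes. Beside Cyp2c70, values for Cyp2c54 were negative, whereas those for Cyp2c29, Cyp2c38 and Cyp2c68 were positive without passing, Cyp2c38 by 0.25 and 0.29 and Cyp2c68 by 0.19 and 0.20 on H-P/C-HF and on L-P/C-HF, with adjusted p of 0.214 and 0.135 for Cyp2c38 and 0.0877 and 0.0563 for Cyp2c68. Cyp2j6, an epoxygenase, was read by 2 probe sets that disagreed: the brighter gave 0.14 (p = 0.229) with duration in H-P/C-HF mice and the dimmer -0.36 (adjusted p = 0.00636).

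Some members showed small differences between groups. Cyp2e1 read 14.07 ± 0.07 in H-P/C-HF and 14.04 ± 0.06 in L-P/C-HF mice at 4-wk (SD, n = 12 each), and 14.06 ± 0.05 (n = 11) and 14.05 ± 0.07 (n = 12) at 2-d. This is near the top of the scale, since the highest level of any probe set was 14.81, and whether the signal was saturated was not tested. Its diet effects were 0.03 (95% interval -0.03 to 0.09) at 4-wk and 0.01 (-0.06 to 0.07) at 2-d. Cyp3a11 differed by -0.09 (-0.26 to 0.08) at 4-wk and -0.01 (-0.18 to 0.17) at 2-d, and Cyp2f2 by -0.04 and 0.13, the second of which was 0.00 without A09.

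The spread between mice of 1 group was a feature of some members. The SD within groups had a median of 0.22 over the 43 members and 0.19 over all genes, and 12 members lay above the 90th percentile of all genes, 0.28. The widest were Cyp2b9 at 1.31, Cyp1a1 at 0.86 with B44 included, Cyp2b10 at 0.37, Cyp2r1 at 0.36, Cyp1a2 at 0.35 and Cyp3a13 at 0.34. At the other end Cyp2e1 had 0.06 and Cyp2d26 0.08. Without A09 and B44 the count above the 90th percentile, again 0.28, was 7. Cyp1a1 then had 0.13 and Cyp1a2 0.21, whereas Cyp2b9 had 1.33, Cyp2r1 0.36, Cyp2b10 0.35, Cyp2j9 0.33 and Cyp3a13 0.30.

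**Figure D5:**
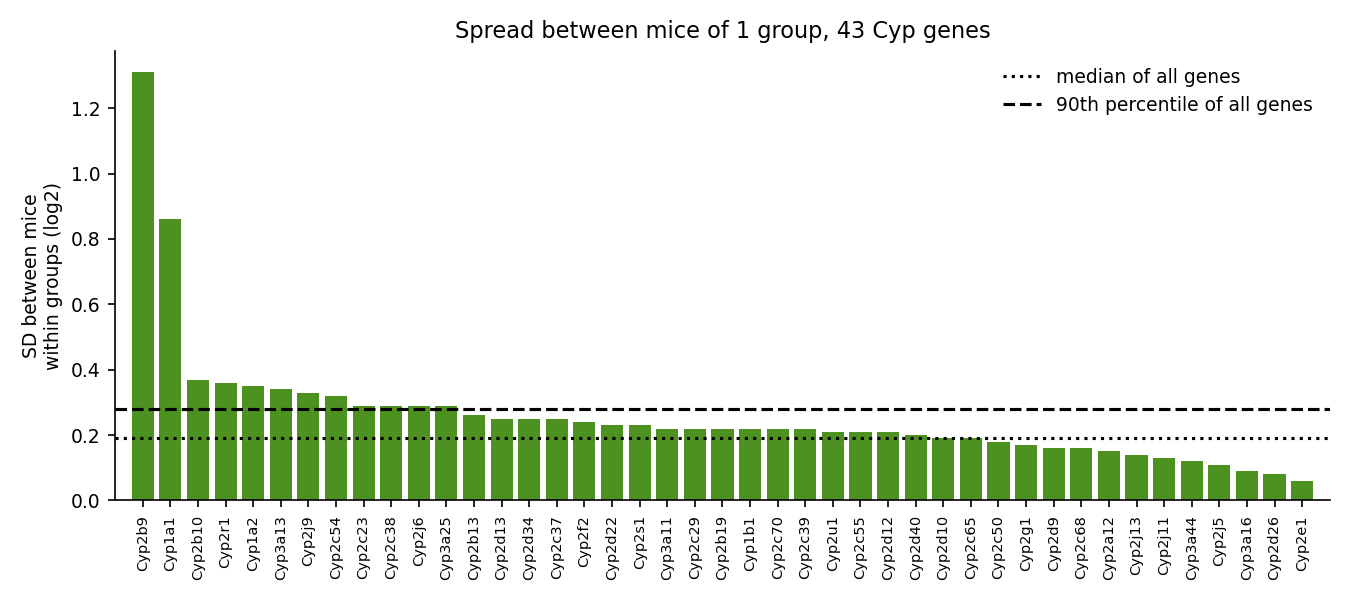
SD between mice within groups (log2, y axis) for each of the 43 genes, in falling order, with lines at the median (0.19, dotted) and the 90th percentile (0.28, dashed) of all 18193 genes. Cyp2b9 and Cyp1a1 stand above the rest, and Cyp1a1 does so only with array B44 included.

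Promoter windows of 250 bases before to 50 after the start were in RefSeq's set for 35 of the 43 members. A TATA box (TATAAA, either strand) was found in 18 of them and in 15.7% of all promoters. The half-site AGGTCA was found in 12, among them Cyp2b9, Cyp2b13, Cyp2c70 and Cyp3a11, and in 18.1% of all promoters, and the AHR core GCGTG in 7, among them Cyp1a1 and Cyp1b1, and in 35.2% of all promoters. The HNF1 half-site GTTAAT was found in 2, Cyp2c68 and Cyp2d26, and in 8.24% of all. No window held 2 copies of AGGTCA in the same direction with 4 bases between them, the spacing bound by CAR and PXR, and 0.0148% of all promoters did. These matches describe letters in a short window, and sites farther away were not searched.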

How the data were processed

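The authors hybridised liver RNA of 48 mice to Affymetrix mouse whole-genome arrays, 1 array per mouse, and normalised them by RMA; the deposited values are log2 levels (the log base was taken from RMA and the range of values, since it is not stated). The label HPHC names a high protein diet, and HFHC was taken as L-P/C-HF from the series' design text. Array B25 was left out, as the methods state.

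The 47 arrays were fitted in R 4.3.3 with limma 3.58.1 (lmFit, then eBayes with a trend) over 45037 probe sets, without 64 control probe sets, and p-values were adjusted by Benjamini-Hochberg over all of them with a threshold of 0.05. Background percentages cover 18193 genes, each read by its brightest probe set. No member was read from the 932 probe sets that list several symbols or the 9160 that list none, and 1 of the 932 is given by both its symbols. The number of arrays, 11 or 12 per group, limits the precision. The methods' own error-assessment software was not used. An ordinary one-way ANOVA without it, run for diet and for duration and adjusted as above, was an alternative. It is therefore not the test of the methods. Correlations used 100000 permutations within groups in Python 3.11.15 with numpy 2.4.6. The fit was tested on simulated data.

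The genes named were the called members, those with the smallest p in each comparison, those with the largest SD between mice, and members chosen by role. The members and lists were chosen with earlier results of these data known. Alternatives were B25 included, 3 further arrays left out, array weights, other scalings, no trend, separate fits, an RNA quality covariate, a replicate block, brighter probe sets alone, adjustment over 1 probe set per gene, and the mean of a gene's probe sets. The pooled diet effect and leaving out A09, B44 or both were added after seeing the data. Sequences come from RefSeq on GRCm38.p6.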

Additional observations from a re-analysis of the deposited data

How the results depend on the processing

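Diet called 0 of 43 genes at 4-wk, at 2-d and for the difference between them under every alternative run. For the pooled diet effect, chosen after its values had been seen, 1 passed in each of the 13 run for it. These are refits of the same data and no independent test. For duration in H-P/C-HF mice the 2 calls became 4 with B25 included, 7 without A01, A09 and A24, and 6 with array weights. They became 1 with each array centred on its median (Cyp2c70, without Cyp2r1) and 3 with cyclic loess (Cyp2a12 besides Cyp2c70 and Cyp2r1). There were 6 in a separate fit, 5 by an ordinary one-way ANOVA and 1 with the RNA quality covariate. Without replicate 9 of the L-P/C-HF 2-d group (A09) there were 6, and without replicate 8 of the H-P/C-HF 4-wk group (B44) there were 2, Cyp2c70 and Cyp1a2. For duration in L-P/C-HF mice the 1 call became 0 without A01, A09 and A24, 0 by ANOVA, 0 with the RNA quality covariate, and 2 with array weights, 2 with cyclic loess, 2 with brighter probe sets alone and 2 without A09. The cause was not tested. Cyp2b9 lost its call in the 3 settings with 0 calls. Of all genes, 6.04% in H-P/C-HF and 6.01% in L-P/C-HF mice passed for duration in the main fit. Without A09 these shares were 6.76% and 6.12%, and with the RNA quality covariate 1.85% and 1.48%. The share over all genes was not worked out for the other alternatives, so their counts of members have no baseline. Of the single-gene values under the alternatives, 481 kept their direction and side of the threshold, 24 passed it newly, 6 no longer passed it and 0 reversed.

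At 4-wk replicate numbers did not pair the samples: between diets the correlation of same-numbered mice ran from -0.28 to 0.21 over 12 numbers. The median there was -0.03, with 2 numbers above 0.1, and 0 of 12 correlated best with their own number. At 2-d same-numbered mice were partly alike, with correlations from -0.15 to 0.57 over 11 numbers and a median of 0.27. Of these, 7 lay above 0.1, and 3 of 11 correlated best with their own number. What same-numbered mice shared at 2-d was not tested. With the replicate number as a block, duration called 3 genes on H-P/C-HF and 1 on L-P/C-HF, the pooled diet effect 1, and the other comparisons 0.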
